A study of Homo sapiens with 2 samples.

Results

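The integrin and claudin genes were examined in PLC-8024, a human hepatocellular carcinoma (HCC) cell line, with and without overexpression of GDF1, a secreted ligand of the TGF-beta superfamily. The members were all genes named as an integrin alpha subunit, an integrin beta subunit (ITGB1 to ITGB8) or a numbered claudin. The names matched 50 of the 58174 genes listed. These were 18 alpha subunits, 8 beta subunits and 24 claudins. A level of at least 1 TPM (the transcript level after scaling for gene length and for the total of the library) in either library was reached by 21 of the 50, against 14929 of all genes. The rule used names and this minimum, not the difference between the libraries, but it was set with earlier results of these data known.

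One library came from PLC-8024-CTR cells, stably transduced by lentivirus with a control vector, and is called the control library below. The other came from PLC-8024-GDF1 cells, transduced in the same way with GDF1, and is called the GDF1 library. Whether a line was 1 clone is not given in the sources used here. Both lines were selected with puromycin, and poly-A RNA was sequenced from each. With 1 library per condition there was no replicate check, no error and no test, and every difference below describes these 2 libraries. TPM keeps no depth, and the sequencing depth was not analysed here. Where a level is 0.0001 TPM, the gene was listed at the value the files hold in place of 0.

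Integrins are receptors made of 1 alpha and 1 beta subunit that hold cells to the extracellular matrix or to other cells, and that pass signals inward through adaptor proteins and kinases at focal adhesions. The beta subunit binds the cytoskeletal adaptors, and the alpha subunit largely sets which ligand is bound. Claudins are membrane proteins of the tight junction that seal the space between epithelial cells or form ion-selective pores in it, and in the liver they separate the bile canaliculus from the blood side of the hepatocyte.

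GDF1 was listed at 2.10 TPM in the control library and 4.64 TPM in the GDF1 library. CERS1, which shares its locus and transcript with GDF1, was at 13.3 TPM and 9612 TPM. The difference at this locus thus stood mainly on the CERS1 identifier. All 13 hepatocyte markers looked at reached 1 TPM in either library. Their summed level was 11893 TPM in the control library and 9145 TPM in the GDF1 library. SERPINA1, within 2-fold, held the largest part of both sums (5308 and 2915 TPM). Lower over 2-fold were 7 of the 13, a call that 9.61% of all genes with at least 1 TPM had. KRT8 (1424 and 1777 TPM), KRT18 (1005 and 1224 TPM) and TF (1318 and 1434 TPM) were higher, within 2-fold. After rescaling, as defined below, 4 of the 13 were lower, as with the GC trend subtracted. These were AFP, APOA1, FOXA2 and TTR, while ALB, APOH and HNF4A were then within 2-fold. Of all genes, 6.85% were lower after rescaling and 6.05% with the GC trend subtracted. AFP was at 31.4 TPM in the control library and 9.75 TPM in the GDF1 library. The paper instead counts AFP as a liver progenitor marker, with EPCAM, KRT19, SOX9 and KRT7. It reports this class as induced by GDF1 on qPCR. For the dedifferentiation it also reports western blots and staining of xenograft tumours. Of the other 4 genes of that class, taken here as cholangiocyte (bile duct) markers, 3 reached 1 TPM. The summed level of the 4 was 12.1 TPM and 24.2 TPM. The cholangiocyte keratins KRT7 (3.004 and 7.98 TPM) and KRT19 (4.46 and 10.9 TPM) were both higher over 2-fold in the GDF1 library. Of all genes with at least 1 TPM, 4.82% were higher over 2-fold. SOX9 was within 2-fold (4.50 and 5.29 TPM), and EPCAM was under 1 TPM in both libraries (0.17 and 0.0001 TPM). Of 7 endothelial and stromal markers, PECAM1 and VIM reached 1 TPM, the summed level was 29.7 TPM and 27.0 TPM, and VWF was at 0.0001 TPM in both. The part of these marker differences in the integrin and claudin differences was not tested. In bulk RNA of a cell line, fewer cells that express a gene and less RNA per cell cannot be told apart.

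Each change is log2((TPM + 1)/(TPM + 1)) of the GDF1 library over the control library, where the pseudocount of 1 understates the change of low genes, and a gene was called when it passed 2-fold on this scale. Among the 21 members with at least 1 TPM, CLDN7 was the 1 called higher, and ITGB1, ITGA3, ITGAL and CLDN14 were the 4 called lower. Of all 14929 genes with at least 1 TPM, 4.82% were higher and 9.61% were lower over 2-fold. With TPM of the GDF1 library rescaled, so that the median change of genes with at least 5 TPM was 0, this split was 6.97% and 6.85%. By family, 0 of 12 integrins were higher and 3 were lower, and 1 of 9 claudins was higher and 1 was lower. The median log2 change was -0.25 for the integrins and 0.05 for the claudins, against -0.20 for all genes and -0.25 for protein-coding genes. The 16 members within 2-fold are given with their levels below, together with the 5 past it.

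**Figure D1:**
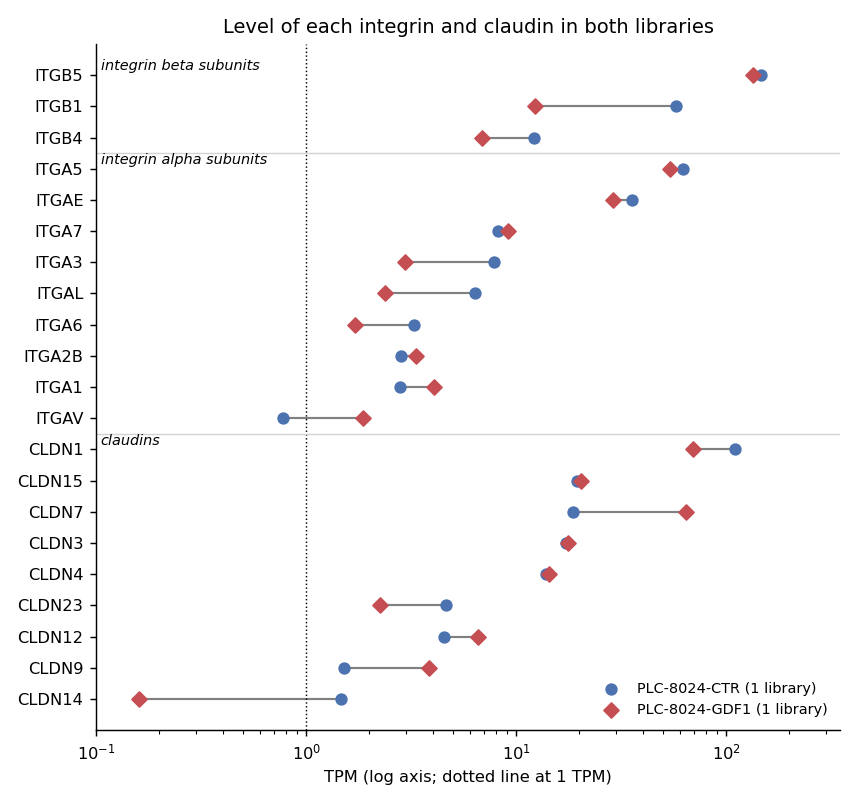
TPM on a log axis of each integrin and claudin with at least 1 TPM in either library, with circles for the control library and diamonds for the GDF1 library (1 library each). ITGB5 kept the highest level in both libraries, ITGB1 moved from 57.6 to 12.2 TPM and CLDN7 from 18.6 to 64.0 TPM.

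The clearest integrin difference was in ITGB1, the beta subunit that most alpha subunits share, and the clearest claudin difference was in CLDN7, a claudin of the lateral membrane of many epithelia. The promoters of both are shown because these genes had the largest log2 change in each direction with the pseudocount of 1 (as a plain ratio, the low CLDN14 was lower by more), and that of CLDN1 because it was the most abundant claudin. The sequences are from RefSeq on GRCh38.p14, from 250 bases before to 50 bases after the start site on the strand of the gene, at chr10:32958181-32958480 (minus strand) for ITGB1, chr17:7263164-7263463 (minus strand) for CLDN7 and chr3:190322397-190322696 (minus strand) for CLDN1. Capitals mark the bases CAGAC, the short Smad-binding motif, on either strand (read as GTCTG on the other).
ITGB1: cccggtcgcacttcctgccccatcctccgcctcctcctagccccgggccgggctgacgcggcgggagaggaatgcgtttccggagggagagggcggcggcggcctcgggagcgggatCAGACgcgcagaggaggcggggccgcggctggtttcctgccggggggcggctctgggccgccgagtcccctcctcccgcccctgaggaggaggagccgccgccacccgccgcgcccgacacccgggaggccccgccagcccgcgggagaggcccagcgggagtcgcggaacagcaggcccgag
CLDN7: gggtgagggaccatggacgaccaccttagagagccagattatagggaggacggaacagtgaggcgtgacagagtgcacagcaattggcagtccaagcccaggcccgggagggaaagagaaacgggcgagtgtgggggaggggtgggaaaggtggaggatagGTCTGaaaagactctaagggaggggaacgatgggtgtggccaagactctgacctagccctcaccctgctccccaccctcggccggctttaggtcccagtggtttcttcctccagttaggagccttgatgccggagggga
CLDN1: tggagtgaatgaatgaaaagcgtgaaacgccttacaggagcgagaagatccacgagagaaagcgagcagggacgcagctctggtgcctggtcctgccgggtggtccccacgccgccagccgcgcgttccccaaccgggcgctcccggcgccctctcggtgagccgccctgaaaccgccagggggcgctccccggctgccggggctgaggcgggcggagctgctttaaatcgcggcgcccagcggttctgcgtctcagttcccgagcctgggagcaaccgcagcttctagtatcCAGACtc

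Each of these promoters held CAGAC once, at position -133 from the start site in ITGB1, at -89 in CLDN7 (read as GTCTG on the strand shown) and at 44 in CLDN1. The ITGB1 promoter was richer in G and C (78.3%, with 39 CG dinucleotides) than that of CLDN1 (67.0%, with 31) and that of CLDN7 (60.0%, with 10). Promoters were matched for 15 of the 21 members, and CLDN9, CLDN23, ITGA3, ITGA7, ITGAL and ITGB4 were not matched. CAGAC was found on either strand in 10 of these 15 promoters (66.7%), against 45.3% of all 35116 promoters of the same length. The palindrome GTCTAGAC, the longer Smad-binding element, was found in 0 of the 15 and in 0.20% of all promoters. The E-box CAGGTG, bound by repressors of epithelial genes such as SNAI1 and ZEB1, was found on either strand in 2 of the 15 (13.3%), those of CLDN3 and ITGA6, and in 20.6% of all promoters. None of these motifs contains another, and a match describes these letters only.

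Among the beta subunits, ITGB1 was listed at 57.6 TPM in the control library and 12.2 TPM in the GDF1 library. This was a log2 change of -2.15, or 4.71-fold lower as a plain ratio of TPM, and 1.00% of all genes with at least 1 TPM had a change as low or lower. ITGB1 lies on the minus strand at chr10:33176201-33294720 (GRCh37). Its longest transcript has a GC content of 39.2%, and genes of like GC content were lower in the GDF1 library than the median gene. Of 1779 protein-coding genes within 2 percentage points of that GC content, 14.3% were lower over 2-fold, with a median of -0.46. With the GC trend over all genes subtracted, the change of ITGB1 was -1.72, so that it remained past 2-fold. AL365203.1, on the opposite strand, shares 2.75% of the exon bases of ITGB1 and was at 0.87 and 1.25 TPM.

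ITGB5, which pairs with ITGAV in a vitronectin receptor, had the highest level of all members, at 147 TPM in the control library and 135 TPM in the GDF1 library. Its log2 change was -0.13, and it turned to 0.08 after rescaling. ITGB4, the hemidesmosome subunit that pairs with ITGA6 on laminin, was listed at 12.1 and 6.87 TPM, a log2 change of -0.74 that did not pass 2-fold. The other 5 beta subunits were under 1 TPM in both libraries. The summed beta level was 217 TPM in the control library and 154 TPM in the GDF1 library, and most of that difference was in ITGB1.

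The makeup of the beta subunit transcripts therefore differed between the libraries. ITGB1 made up 26.5% of the summed beta TPM in the control library and 7.92% in the GDF1 library. ITGB5 made up 67.7% and 87.3%. ITGB5 exceeded ITGB1 by a ratio of 2.55 in the control library and 11.02 in the GDF1 library. The share of ITGB4 was 5.57% and 4.45%.

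**Figure D2:**
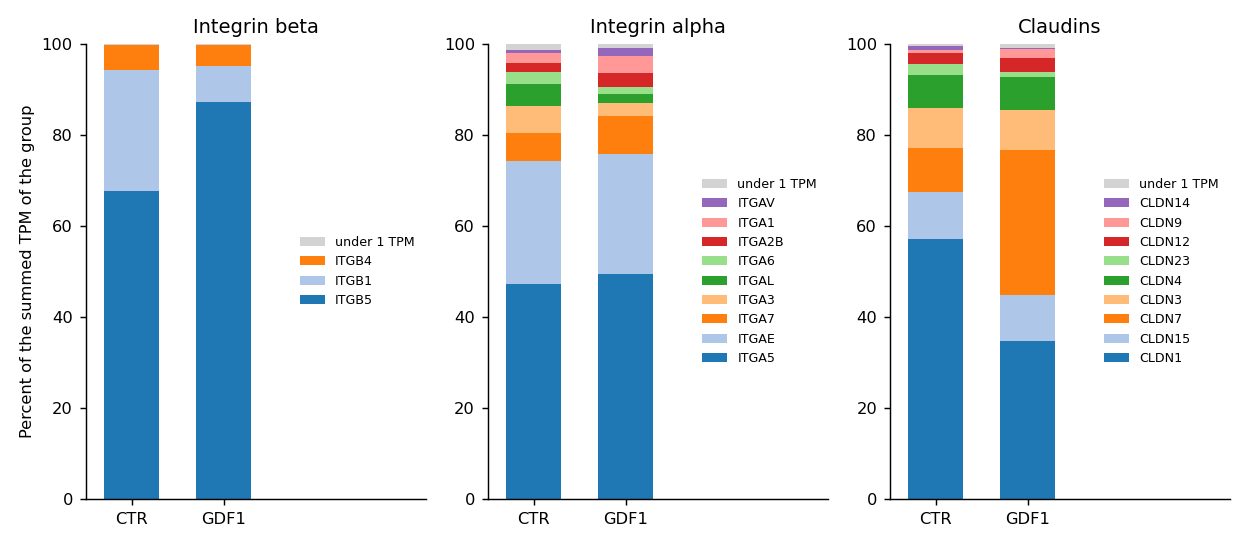
Share of the summed TPM of the integrin beta subunits, the integrin alpha subunits and the claudins taken by each member, in percent, in the control library (CTR) and the GDF1 library (GDF1), with members under 1 TPM in both libraries added up in grey. The ITGB1 share was 26.5% and 7.92%, the alpha shares of ITGA5 and ITGAE were close in both libraries, and the CLDN7 share was 9.67% and 31.9%.

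Of the alpha subunits, ITGA5 was the most abundant. It is the alpha subunit of the main fibronectin receptor and was listed at 62.2 TPM in the control library and 54.1 TPM in the GDF1 library. Its log2 change of -0.20 was that of the median gene, and it was 0.01 after rescaling. ITGA5 took 47.1% and 49.4% of the summed alpha TPM, which was 132 TPM in the control library and 109 TPM in the GDF1 library.

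The laminin-binding alpha subunits ITGA3, ITGA6 and ITGA7 did not move together. ITGA3, on the plus strand at chr17:48133332-48167845 (GRCh37), was listed at 7.88 TPM in the control library and 2.96 TPM in the GDF1 library. Its log2 change was -1.16, past 2-fold, and it passed by little after rescaling (-1.01). ITGA3 shared no base with another gene of at least 1 TPM. ITGA6, the partner of both ITGB1 and ITGB4, was at 3.25 and 1.71 TPM, a change of -0.65 that was -0.29 with the GC trend subtracted. ITGA7 was at 8.19 and 9.10 TPM (0.14), and it shares 1.31% of its exon bases with BLOC1S1 on the opposite strand, at 188 and 345 TPM.

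The collagen-binding alpha subunits and ITGAV were low. ITGA1, a collagen and laminin receptor subunit, was listed at 2.79 TPM in the control library and 4.08 TPM in the GDF1 library (log2 change 0.42). PELO lies within ITGA1 on the same strand, shares 2.69% of its exon bases and was at 15.6 and 9.62 TPM, and the sum of both genes gave -0.40. ITGA2, ITGA10 and ITGA11, the other collagen-binding subunits, were under 1 TPM in both libraries.

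ITGAV, which binds RGD-containing ligands such as vitronectin and the latency peptide of TGF-beta, was at 0.78 TPM in the control library and 1.87 TPM in the GDF1 library. Its log2 change was 0.69 with the pseudocount of 1. It passed 2-fold as a plain TPM ratio (1.27), with a pseudocount of 0.1 (1.17) and with the GC trend subtracted (1.12). At these levels the call depended on the pseudocount and on the GC correction.

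A further 3 alpha subunits are best known from blood cells. ITGAE, which pairs with ITGB7 on T cells and binds E-cadherin, was the alpha subunit with the next highest level after ITGA5, at 35.8 TPM in the control library and 29.0 TPM in the GDF1 library (log2 change -0.30). ITGAL, which pairs with ITGB2 in the leukocyte receptor for ICAM1, lies on the plus strand at chr16:30483979-30534888 (GRCh37) and was at 6.33 and 2.37 TPM. Its change of -1.12 passed 2-fold, but it was -0.97 after rescaling and -0.96 with the GC trend subtracted. ITGA2B, the platelet fibrinogen receptor subunit, was at 2.84 and 3.34 TPM (0.18).

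The known beta partners of these 3 subunits were under 1 TPM. ITGB7 was listed at 0.08 TPM in the control library and 0.42 TPM in the GDF1 library, ITGB2 at 0.27 and 0.07 TPM, and ITGB3 at 0.0001 TPM in both. Of 8 leukocyte markers, CD68 and LYZ reached 1 TPM, the summed level was 332 TPM in the control library and 228 TPM in the GDF1 library, most of it LYZ, and PTPRC and TYROBP were at 0.0001 TPM in both libraries. CD68 was at 33.1 and 13.2 TPM (-1.26), lower over 2-fold as ITGAL was, and 81.6% of its exon bases are shared with AC016876.2 on the same strand. AC016876.1, on the opposite strand, shares 6.84% of the exon bases of CD68 and was at 32.6 and 69.2 TPM. The sum with CD68 gave a log2 change of -0.92 for AC016876.2 and 0.32 for AC016876.1. Of 4 platelet and megakaryocyte markers, PF4 reached 1 TPM (1.79 and 6.85 TPM), the summed level was 2.61 and 7.84 TPM, and GP9 was at 0.0001 TPM in both.

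Taking the 24 alpha and beta pairs known in human cells, both transcripts reached 1 TPM for 6 pairs in the control library and 8 pairs in the GDF1 library. ITGB1 was the beta subunit in 5 of the 6 and in 6 of the 8, and ITGA6 with ITGB4 was in both sets. The pairs of ITGAV with ITGB1 and ITGB5 were added in the GDF1 library because ITGAV passed 1 TPM there.

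The balance between ITGB1 and its alpha partners was lower in the GDF1 library. The 12 alpha partners of ITGB1 summed to 85.9 TPM in the control library and 74.5 TPM in the GDF1 library, and the ratio of ITGB1 to that sum was 0.671 and 0.164. Against ITGA5 alone, the ratio of ITGB1 was 0.927 and 0.226. RNA levels do not give the number of receptors at the cell surface.

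Among the claudins, CLDN7 was listed at 18.6 TPM in the control library and 64.0 TPM in the GDF1 library. This was a log2 change of 1.73, or 3.44-fold as a plain ratio, and 1.04% of all genes had a change as high or higher. The change was 1.74 with the GC trend subtracted. EPCAM, a membrane protein known to bind CLDN7, was at 0.17 TPM in the control library and 0.0001 TPM in the GDF1 library.

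CLDN7 lies on the minus strand at chr17:7163222-7167302 (GRCh37) and shares exon bases with other genes. ELP5, on the opposite strand, was listed at 99.5 TPM in the control library and 89.2 TPM in the GDF1 library and shares 38 of the 2492 exon bases of CLDN7. AC003688.1, on the same strand, shares 10.8% of them and was at 1.38 and 0.72 TPM. Neither neighbour was higher in the GDF1 library as CLDN7 was, and the sum of CLDN7 and ELP5 gave a log2 change of 0.37. Whether counting used the strand is not given in the sources used here, so that reads of shared bases cannot be told apart, here and for the other overlapping genes named.

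CLDN1, a barrier-forming claudin of hepatocytes and a co-receptor of hepatitis C virus, had the highest claudin level in both libraries. It was at 110.0 TPM in the control library and 69.7 TPM in the GDF1 library, a log2 change of -0.65 that was -0.27 with the GC trend subtracted. Its share of the summed claudin TPM was 57.2% and 34.7%, while that of CLDN7 was 9.67% and 31.9%. CLDN1 thus exceeded CLDN7 by a ratio of 5.92 in the control library and of 1.09 in the GDF1 library. On TPM as listed, the summed claudin level was close in both libraries, at 192 TPM and 201 TPM. The difference on this scale was mainly in which claudins made it up. Rescaling multiplied the GDF1 library by 1.15, which raises its sum but leaves the shares unchanged.

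CLDN3 and CLDN4, receptors of a Clostridium enterotoxin, are neighbours on chromosome 7, 29.3 kb apart, and had like levels. CLDN3 was listed at 17.2 TPM in the control library and 17.7 TPM in the GDF1 library (log2 change 0.04), and it was -0.29 with the GC trend subtracted. CLDN4 was at 13.8 and 14.3 TPM (0.05). CLDN15, a cation pore former of the intestine, was at 19.6 and 20.3 TPM (0.05). On TPM as listed, the values of the libraries differed by no more than a few percent in these 3. After rescaling, the log2 change was 0.24 for CLDN3, 0.24 for CLDN4 and 0.25 for CLDN15.

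The remaining claudins were low. CLDN14, expressed in liver, kidney and the inner ear, lies on the minus strand at chr21:37832919-37948867 (GRCh37) and was at 1.46 TPM in the control library and 0.16 TPM in the GDF1 library. Its log2 change of -1.08 passed 2-fold and was -3.19 as a plain TPM ratio and -1.02 with the GC trend subtracted. AP000695.2, on the opposite strand, shares 5.54% of its exon bases and was at 1.31 and 0.0001 TPM, so both genes of the locus were lower.

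CLDN23 was listed at 4.63 TPM in the control library and 2.25 TPM in the GDF1 library (log2 change -0.79), and it passed 2-fold with a pseudocount of 0.1 (-1.01) and as a plain ratio (-1.04). CLDN9 was at 1.51 and 3.83 TPM (0.94) and passed 2-fold with a pseudocount of 0.1 (1.29), as a plain ratio (1.34) and after rescaling (1.11). CLDN6, which lies 207 bases from CLDN9, was under 1 TPM in both libraries. CLDN12 was at 4.53 and 6.56 TPM (0.45), while GTPBP10, which shares 5.17% of its exon bases on the same strand, was at 3.60 and 0.67 TPM, and their sum gave -0.15. CDK14, which shares 2.996% of the exon bases of CLDN12 on the same strand, was at 1.91 and 1.51 TPM, and its sum with CLDN12 gave 0.29. The calls of CLDN9 and CLDN23 thus rested on the scale.

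**Figure D3:**
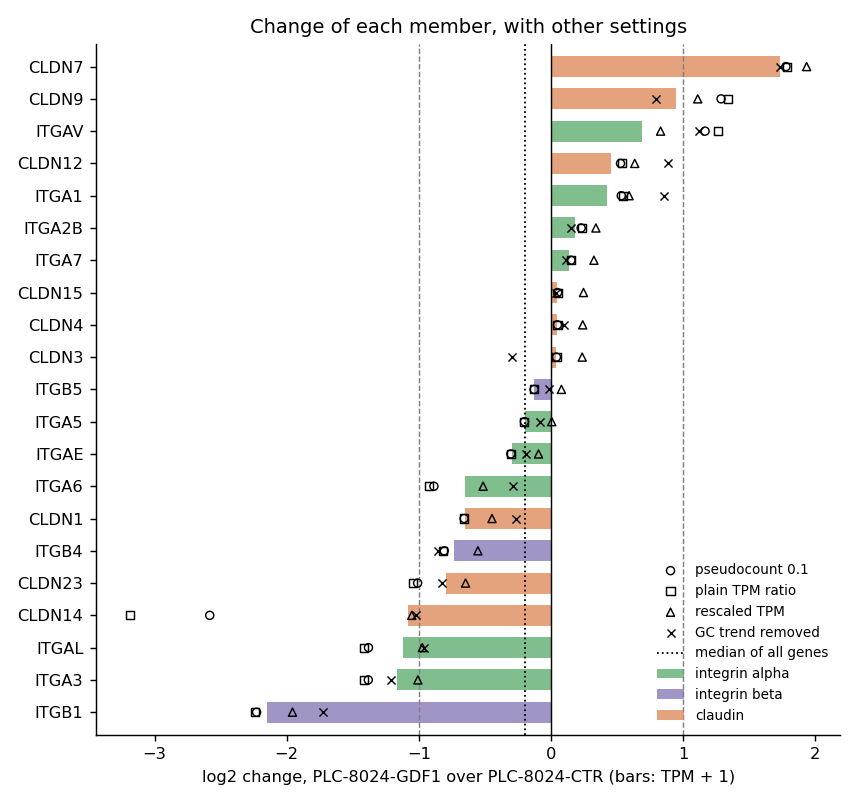
Log2 change of each member with at least 1 TPM in either library, as bars with a pseudocount of 1 and as points under the other settings. ITGB1 (-2.15), ITGA3 (-1.16) and CLDN14 (-1.08) were past 2-fold lower and CLDN7 (1.73) past 2-fold higher under every setting drawn. ITGA3 (-1.01 after rescaling) and CLDN14 (-1.02 with the GC trend subtracted) passed it by little there. ITGAL, ITGAV, CLDN9 and CLDN23 crossed the 2-fold line under at least 1 of the settings.

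The other 29 members were under 1 TPM in both libraries. Of these, 11 were listed at 0.0001 TPM in both, namely ITGA4, ITGA8, ITGB3, ITGB6, CLDN8, CLDN17, CLDN19, CLDN22, CLDN24, CLDN25 and CLDN34. The highest of the rest was CLDN10, a pore-forming claudin, at 0.0001 TPM in the control library and 0.887 TPM in the GDF1 library. CLDN5, the main claudin of endothelium, was at 0.0001 and 0.412 TPM. CLDN2, a cation and water pore, was at 0.208 and 0.0338 TPM. ITGB8 and ITGA9 were above 0.0001 TPM and at most at 0.036 TPM, the level of ITGA9 in the GDF1 library. The remaining 13 were ITGA2, ITGA10, ITGA11, ITGAD, ITGAM, ITGAX, ITGB2, ITGB7, CLDN6, CLDN11, CLDN16, CLDN18 and CLDN20, all at 0.505 TPM or less, the level of ITGA2 in the control library.

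Partner genes of the integrins and claudins were taken from lists of known partners. Of 32 integrin adaptors and kinases, 30 reached 1 TPM, 2 were higher and 4 were lower over 2-fold, and the median log2 change was -0.38. Of all genes with at least 1 TPM, 4.82% were higher and 9.61% were lower. The counts are not read as a result about the list. TNS1, a tensin that ties integrins to actin, was at 7.38 TPM in the control library and 1.09 TPM in the GDF1 library (-2.01). VASP, an actin regulator at focal adhesions, was at 46.6 and 21.0 TPM (-1.11). PTK2, the focal adhesion kinase, was at 16.5 and 7.58 TPM (-1.03). The last 2 passed 2-fold by little, and after rescaling VASP (-0.91) and PTK2 (-0.85) did not.

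The PINCH adaptors LIMS1 and LIMS2, which bind the integrin-linked kinase ILK, differed in opposite directions. LIMS1 was listed at 8.86 TPM in the control library and 3.88 TPM in the GDF1 library (-1.01), and it was -0.85 after rescaling and -0.59 with the GC trend subtracted. LIMS2 was at 0.12 and 4.74 TPM (2.36). ITGB1BP1, which binds the tail of ITGB1 and limits its activation, was at 20.3 and 49.9 TPM (1.25), and 33.2% of its exon bases are shared with ASAP2 on the opposite strand, at 0.36 and 1.71 TPM. The list held 1 gene lower after rescaling (TNS1) and 2 with the GC trend subtracted (TNS1 and VASP). Of all genes, 6.85% and 6.05% were lower under these settings. The adaptors most abundant in the control library stayed within 2-fold. ZYX was at 123 and 87.9 TPM, ILK at 115 and 85.9 TPM and FLNA at 110.5 and 161 TPM.

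All 11 hemidesmosome and tetraspanin partners reached 1 TPM, with a median of 0.05, 1 higher and 1 lower (4.82% and 9.61% of all genes). CD47, which associates with integrins and signals against phagocytosis, was at 4.78 TPM in the control library and 12.8 TPM in the GDF1 library (1.25). CD9, a tetraspanin that binds ITGB1 complexes, was at 78.2 and 31.0 TPM (-1.31), lower together with ITGB1. The most abundant of the list in both libraries were BSG, CD63 and CD151.

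Of 29 integrin ligands and latent TGF-beta genes, 18 reached 1 TPM, 0 were higher and 2 were lower over 2-fold, with a median of -0.35. Of all genes, 4.82% were higher and 9.61% were lower. After rescaling, 3 of the list were higher (VTN, FGA and LAMA5) and 1 was lower (CDH1), against 6.97% and 6.85% of all genes. After subtraction of the GC trend, 1 was higher (FGA) and 2 were lower (CDH1 and LTBP4), against 6.29% and 6.05% of all genes. The counts thus depended on the scaling and are not read as a result about the list. CDH1, E-cadherin, the ligand of ITGAE, was listed at 10.4 TPM in the control library and 0.33 TPM in the GDF1 library (-3.10). FN1, fibronectin, the ligand of ITGA5, was at 87.5 and 38.1 TPM (-1.18), and it was -0.98 after rescaling and -0.81 with the GC trend subtracted. VTN, vitronectin, the ligand of the ITGB5 receptor, was at 538 and 986 TPM, within 2-fold (0.87) but past it after rescaling (1.08). FGA, a fibrinogen chain, was at 468 and 911 TPM (0.96), and it was 1.17 after rescaling and 1.303 with the GC trend subtracted. LAMA5, a laminin chain, was at 95.7 and 189 TPM (0.97), and it was 1.18 after rescaling. FGB and FGG, the other fibrinogen chains, were with VTN the most abundant ligands in the control library and did not follow FGA. FGB was at 1991 TPM in the control library and 1517 TPM in the GDF1 library (-0.39), and FGG at 967 and 755 TPM (-0.36). With the GC trend subtracted, FGB was at -0.0055 and FGG at 0.082.

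Of 28 tight junction genes besides claudins that are described here, 21 reached 1 TPM, with a median log2 change of -0.25. F11R, the junctional adhesion molecule JAM-A, was listed at 6.58 TPM in the control library and 36.0 TPM in the GDF1 library (2.29). It was the 1 gene of these called higher, a call that 4.82% of all genes had. The other 20 with at least 1 TPM were within 2-fold, with SYMPK, CRB3 and LSR the most abundant in the control library.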

How the data were processed

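Poly-A RNA of 1 PLC-8024-CTR library and 1 PLC-8024-GDF1 library was sequenced in pairs on a HiSeq XTen. The submitters' processing notes name FastQC 0.11.2, Trimmomatic 0.36, HISAT2 2.1.0, bedtools 2.26.0 and StringTie 1.3.3b with hg19. The authors deposited 1 TPM value per gene and library, with 0.0001 in place of 0. The column header names a mean, although each condition has 1 library. The methods name RefSeq genes, while the files list Ensembl identifiers. The sequencing depth was not analysed here, and the strand setting of the counting is not given in the sources used here.

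From these values, log2 changes with a pseudocount of 1 were computed for genes that reached 1 TPM in 1 or both libraries. Positions, exons and GC content (longest transcript) came from GENCODE 44 on GRCh37, which held all 50 members and 55726 of 58174 identifiers. GC peers were protein-coding genes within 2 percentage points, and the GC trend was a lowess fit with a span of 0.3. The named genes were all members, partner genes past 2-fold (at most 6 a list) and the 3 most abundant of each list in the control library. FGA, LAMA5 and LTBP4 were named after their values were seen. One gene of the tight junction list, not a member, is not reported here and was left out of its list's counts and median. Cell type markers were named beside the results they touch, and overlapping genes after their values were seen. Members and lists were chosen with earlier results of these data known. Alternatives were a pseudocount of 0.1, the plain ratio, a minimum of 5 TPM, no minimum, rescaled TPM and the GC trend subtracted. Leaving out members that share exon bases with another gene of at least 1 TPM was added after the data were seen. The calculation was tested on simulated data with control levels of at least 5 TPM and planted changes far past 2-fold. Calls near 2-fold and lower levels were not covered by it. Python 3.11.15, numpy 2.4.6, pandas 2.3.3, statsmodels 0.14.6 and matplotlib 3.10.9 were used.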

Additional observations from a re-analysis of the deposited data

How the results depend on the processing

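No paired analysis was possible because there was only 1 library a condition. For the same reason no library could be left out, and TPM gives no counting error, so the smallest differences and the levels near 1 TPM are the least certain. The integrins lower over 2-fold numbered 3 as reported and 2 with rescaled TPM and with the GC trend subtracted, which both lost ITGAL, and 2 with the overlapping members left out, since ITGB1 is one of these. The integrins higher over 2-fold numbered 0 as reported and 1 (ITGAV) under the pseudocount of 0.1, under the plain ratio and after the GC trend was subtracted. The claudins higher over 2-fold numbered 1 as reported, 2 under the pseudocount of 0.1, the plain ratio and rescaled TPM, and 0 when members that share exon bases with another gene were left out, since CLDN7 is one of these. The claudins lower over 2-fold numbered 1 as reported, 2 under the pseudocount of 0.1 and the plain ratio, and 0 under the minimum of 5 TPM and with the overlapping members left out, since both remove CLDN14. Rescaling turned ITGB5 to 0.079 and ITGA5 to 0.0059, and subtracting the GC trend turned CLDN3 to -0.29. Rescaling multiplied TPM of PLC-8024-GDF1 by 1.15 and moved the median of all genes from -0.20 to -0.02, with 6.97% higher and 6.85% lower over 2-fold. With the GC trend subtracted, 6.29% were higher and 6.05% lower. The integrin median lay between -0.52 (at least 5 TPM) and -0.04 (rescaled), and the claudin median between 0.00 (no minimum) and 0.24 (rescaled). The cause of the GC trend was not tested.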
